A study of Arabidopsis thaliana with 24 samples.

Results

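The Aux/IAA repressor genes considered here are IAA18, IAA20, IAA29, IAA30, IAA31, IAA33 and IAA34. They are the 7 genes with a symbol of IAA and a number to which the annotation used here gives a probe set of their own on the Affymetrix ATH1 array. This annotation named 13350 genes in all, and 13513 probe sets name 1 gene, where 22746 were tested. The 7 genes are therefore what the annotation names, and not all Aux/IAA genes that the array may measure. The 7 genes were chosen by gene name, with earlier results of these data known. Each has 1 probe set, and all 7 probe sets carry the suffix that Affymetrix gives to probes of a single transcript. The loci are AT1G51950 for IAA18, AT2G46990 for IAA20, AT4G32280 for IAA29, AT3G62100 for IAA30, AT3G17600 for IAA31, AT5G57420 for IAA33 and AT1G15050 for IAA34. Other members of the family, such as any listed under another name or on a probe set without a name, were not looked up or analysed here.

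The study asked which genes respond while auxin induces a cambium between the vascular bundles of the Arabidopsis thaliana stem, using 24 arrays of wild-type plants in 8 groups of 3 biological replicates. For all samples the labels give 3 weeks of short days with 8 h of light, and long days with 16 h of light. Stem fragments of 1.5 cm, from 2.5 cm above the base, were kept for 2 or 5 days on MS medium. Tissue was cut by laser capture microdissection out of the central 3 mm, which had not touched the medium. Captures of the starch sheath, a cell layer that runs along the bundles and the interfascicular regions, were made after 2 days with the synthetic auxin NAA, after 2 and 5 days on medium alone, and from untreated stems. After 5 days with NAA the captured tissue was the newly formed interfascicular cambium. The surrounding stem tissue was captured after 2 and 5 days with NAA and untreated. There is no stem group on medium alone, so the effect of NAA on stem tissue cannot be told apart from that of culture. The labels give no NAA dose and no number of plants per replicate.

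Aux/IAA proteins hold auxin response factors (ARFs) inactive by binding them and recruiting corepressors of the TOPLESS family. Auxin joins most of them to TIR1/AFB receptors through their domain II, whereupon they are degraded and the ARFs are released. Many Aux/IAA genes are themselves ARF targets, so that their transcripts rise with auxin and close a negative feedback loop. The degradation is not visible on an array, which measures transcripts. Within the list IAA18 is degraded in the usual way. IAA20 and IAA30 lack domain II, IAA31 carries an altered one, and IAA33 and IAA34 belong to the divergent members that escape TIR1/AFB control.

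The deposited values are log2 expression after RMA, and their median over all probe sets and arrays was 3.09. The SD over probe sets was 0.96 to 1.08 on 3 untreated arrays (starch sheath replicates 2 and 3 and stem replicate 3) and 1.22 to 1.57 on the other 21, the other 3 untreated arrays included. The excess of the 3′ over the 5′ signal of the GAPDH control was 3.93 to 5.50 on untreated arrays and 5.52 to 7.43 on cultured ones. Of the marker lists, 2 of 13 starch sheath genes and 1 of 10 cambium genes were measured. The sheath gene JKD differed between untreated sheath and stem by 1.00 (adjusted p = 0.159), and the starch gene SBE2.2 went the other way, by -0.78 (adjusted p = 0.441). The cambium gene MOL1 differed between cambium and stem at 5 days by 1.39 (adjusted p = 0.601), so the captured identities were not shown by these markers. Groups were compared with limma over all 24 arrays, with two-sided p-values adjusted by Benjamini-Hochberg over 22746 probe sets, and a value is said to pass where the adjusted p is under 0.05.

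IAA29, a gene known from shade and warmth responses as a target of PIF transcription factors, was the Aux/IAA gene of the list whose transcript rose with NAA. In starch sheath after 2 days on NAA it measured 5.62, 6.86 and 4.28, against 2.50, 3.27 and 2.89 in sheath on medium alone for the same time. All 3 NAA arrays lay above all 3 medium arrays, although they were spread over more than 2 log2 units. The fitted change was 2.70 ± 0.56 (SE, n = 3 each), or 6.51-fold with a 95% interval of 2.90 to 14.6, and it passed (limma adjusted p = 0.0375). IAA29 was thus 1 of 7 members to pass, all others not passing, where 0.382% of all probe sets passed in this comparison.

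After 5 days IAA29 measured 4.75, 4.24 and 3.85 in the NAA-induced cambium, against 2.72, 2.78 and 3.35 in sheath on medium. The groups again did not overlap, but the change of 1.33 ± 0.56 did not pass (limma adjusted p = 0.283, 95% interval 0.16 to 2.49). At this time 0 of 7 members passed, where 3.49% of all probe sets did. The change at 5 days minus that at 2 days was -1.38 ± 0.79, which did not pass (limma adjusted p = 0.587). The 5-day comparison sets cambium against sheath and the 2-day comparison sheath against sheath. Time and captured tissue therefore cannot be told apart in this difference, and a fading of the response with time was not resolved.

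Averaged over both times, IAA29 was 4.04-fold higher with NAA than on medium (2.01 ± 0.39 on the log2 scale, limma adjusted p = 0.00776). It was the 1 member of 7 to pass, where 2.28% of all probe sets passed. This averaged value passed in 34 of 34 alternative settings, with changes of 1.7 to 2.34 and adjusted p of 0.00101 to 0.0252. The 2-day value by itself was less secure, and passed in 23 of 35 alternative settings, a set not identical to that of the average. Its adjusted p was over 0.05 in 10 of 24 fits that left out 1 array, and 0.258 without NAA replicate 2, the highest array, where the change was 2.07. With no other groups in the fit than these, it was 0.163.

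**Figure D1:**
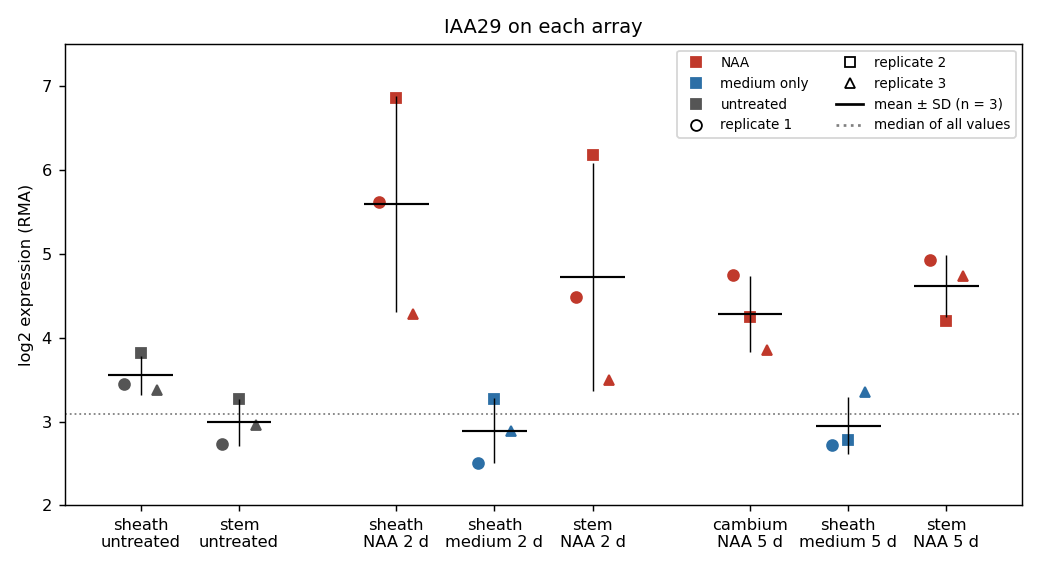
IAA29 on each of the 24 arrays, as log2 expression after RMA (y axis), by tissue and treatment (x axis) from 0 to 5 days. Points are arrays, black lines are the mean and SD of 3 arrays, and the dotted line is the median of all values, 3.09. The NAA arrays reach from 3.5 to 6.86, and the arrays without NAA from 2.50 to 3.82.

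Across all 8 groups the arrays fell by treatment more than by tissue. The 12 NAA arrays lay between 3.5 and 6.86 with a median of 4.61, and the 12 arrays without NAA between 2.50 and 3.82 with a median of 3.12. Of the 12 NAA arrays, 11 lay above every array without NAA, and the exception was stem replicate 3 at 2 days, at 3.5. In the order of group means, sheath on NAA for 2 days (5.59 ± 1.29, SD, n = 3) came first, followed by stem on NAA for 2 days (4.72 ± 1.36), stem on NAA for 5 days (4.62 ± 0.37) and cambium at 5 days (4.28 ± 0.45). Each of these 4 overlapped with its neighbour. Then came untreated sheath (3.55 ± 0.23), whose arrays overlapped with neither the cambium above it nor the untreated stem below it (2.99 ± 0.28). Sheath on medium at 5 days (2.95 ± 0.34) and at 2 days (2.89 ± 0.39) overlapped with untreated stem. The moderated F test over the 8 groups passed for IAA29 (F = 6.51, limma adjusted p = 0.00898), as for 13.7% of all probe sets.

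The NAA-treated groups were also set against untreated tissue. The untreated sheath measured 3.45, 3.82 and 3.38, and sheath on NAA for 2 days lay above it by 2.04 ± 0.56, or 4.11-fold (limma adjusted p = 0.025). IAA29 was 1 of 7 members to pass in this comparison, where 11.7% of all probe sets passed. Its arrays did not overlap here, as for 11.8% of all probe sets in this direction. Without the 3 narrow arrays the change was 2.14 and the adjusted p 0.222, in a fit that keeps 1 untreated sheath array and assumes that it varies like the other groups. The sheath marker JKD was lower in sheath on NAA than untreated (-0.93 ± 0.27, adjusted p = 0.0334). SBE2.2, the other sheath marker measured, went the other way and did not pass. The mean log2 level of these 2 markers was 3.72 to 3.82 in untreated sheath and 3.81 to 4.13 in sheath on NAA. Their part in the value of IAA29 was not tested. Once the GAPDH 3′ excess entered as a covariate, the change was 1.11 and the adjusted p 0.724, and in this covariate untreated and cultured arrays do not overlap.

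In the cambium at 5 days IAA29 lay above untreated sheath on every array, as 10.1% of all probe sets did, by 0.73 ± 0.56 (limma adjusted p = 0.416), and 0 of 7 members passed where 8.58% of all probe sets did. On medium alone IAA29 lay below untreated sheath on every array, with changes of -0.66 at 2 days (limma adjusted p = 0.535) and -0.60 at 5 days (0.538). Neither passed, nor did any other member, where 4.94% and 6.34% of all probe sets passed. IAA29 and IAA20 were the 2 of 7 members below untreated sheath on every medium array, as 7.32% of all probe sets were at 2 days and 9.67% at 5 days.

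In surrounding stem IAA29 measured 4.49, 6.18 and 3.5 after 2 days on NAA and 4.92, 4.2 and 4.73 after 5 days, against 2.73, 3.27 and 2.96 in untreated stem. Every array on NAA lay above every untreated one at both times, which no other member did, as 9.75% of all probe sets did at 2 days and 9.97% at 5 days. The changes were 1.74 ± 0.56 at 2 days (limma adjusted p = 0.103) and 1.63 ± 0.56 at 5 days (0.125), and neither passed. No member passed in these comparisons, where 3.23% and 4.0% of all probe sets did. The 5-day value passed in a fit of these 2 groups alone (adjusted p = 0.0325). IAA29 in stem hardly differed between 5 and 2 days, by -0.11 ± 0.56 (adjusted p = 0.985, 95% interval -1.27 to 1.06), and 0 of 7 members passed where 0.857% of all probe sets did.

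Sheath and stem were compared directly at each time, and no member passed in any of the 3 comparisons, where 0.202%, 0.246% and 0.356% of all probe sets passed at 0, 2 and 5 days. Untreated, IAA29 was higher in every sheath array than in every stem array, with a difference of 0.56 ± 0.56 (limma adjusted p = 0.669). On NAA for 2 days the difference was 0.87 ± 0.56 (adjusted p = 1), and at 5 days cambium minus stem was -0.34 ± 0.56 (adjusted p = 1). The change with 2 days of NAA relative to untreated tissue differed between sheath and stem by 0.30 ± 0.79 (adjusted p = 0.943), and that with 5 days by -0.90 ± 0.79 (0.714). No member passed in these tests of the tissue difference, where 0.00879% and 0.0308% of all probe sets passed. The response of IAA29 was therefore not shown to be particular to the sheath, with a 95% interval of -1.35 to 1.95 at 2 days.

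Replicates of the same number moved together for IAA29 on NAA at 2 days. In both tissues replicate 2 was the highest (6.86 in sheath and 6.18 in stem) and replicate 3 the lowest (4.28 and 3.5). Of all probe sets, 5.04% had this order in both tissues, and IAA18 and IAA30 had it too. Sheath minus stem was 1.13, 0.68 and 0.79 in replicates 1, 2 and 3, a spread of 0.24 (SD) against 1.29 within sheath and 1.36 within stem. With the replicate number as a block over these 6 arrays, a setting added after the data were seen, the difference was 0.87 ± 0.13 and still did not pass (limma adjusted p = 0.14). The GAPDH 3′ excess was 6.14, 6.67 and 6.32 in sheath and 7.09, 6.63 and 6.07 in stem for replicates 1, 2 and 3. It shared the highest replicate with IAA29 in sheath and the lowest in stem, but not the full order in either tissue. Its part in the order of IAA29 was not tested.

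The other 6 genes lay between 2.35 and 3.76 on all 24 arrays, mostly below the median of all values. IAA34 lay above it on 15 arrays, IAA30 on 9, IAA18 on 4, IAA31 on 1, and IAA20 and IAA33 on 0. The SD of these 6 genes over the arrays was 0.11 to 0.24, against 1.14 for IAA29. No detection calls were used here, so it is not settled which of these probe sets measured a transcript at all. IAA20, IAA31 and IAA33 had no group mean at or above the median, while IAA18, IAA29, IAA30 and IAA34 had one. Over the 18 contrasts these 6 genes gave 108 values, of which 0 passed with limma, 13 had an unadjusted p under 0.05, and the smallest adjusted p was 0.0673. Over all probe sets, 4.51% to 32.9% had an unadjusted p under 0.05, depending on the contrast. In the 15 of 18 contrasts in which no member of the whole list passed, 0 to 2 of 7 members had one. For NAA against medium their 95% intervals reached from a 1.46-fold lower to a 1.85-fold higher level. A change as large as the 6.51-fold of IAA29 on this scale lies outside all of these intervals. For a probe set that measured no transcript, such an interval says nothing of the gene.

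**Figure D2:**
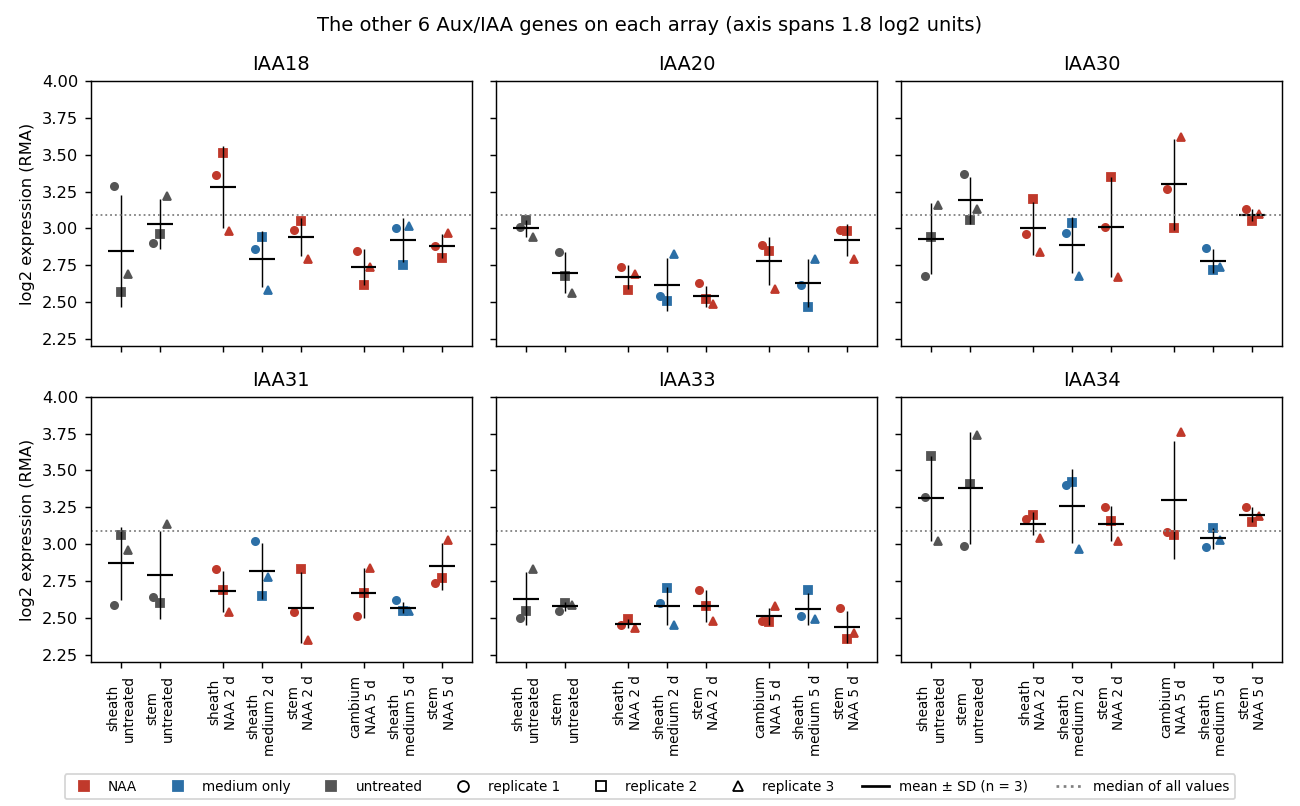
The other 6 Aux/IAA genes on each of the 24 arrays, as log2 expression after RMA (y axis, spanning 1.8 log2 units), by tissue and treatment (x axis) from 0 to 5 days. Points are arrays, black lines are the mean and SD of 3 arrays, and the dotted line is the median of all values, 3.09. The values stay between 2.35 and 3.76. The IAA18 arrays of sheath on NAA at 2 days and the IAA30 arrays of cambium lie above the sheath arrays on medium of the same time.

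IAA18, a canonical repressor whose stabilised mutant form disturbs lateral root formation, came nearest to IAA29 at 2 days. It measured 3.36, 3.51 and 2.98 in sheath on NAA, against 2.86, 2.94 and 2.58 on medium. The groups did not overlap, by a narrow margin, and the change was 0.49 ± 0.17 (limma adjusted p = 0.294). IAA18 and IAA29 were the 2 of 7 members whose NAA arrays all lay above the medium arrays at 2 days, as 9.0% of all probe sets did.

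At 5 days IAA18 lay lower in the NAA group, with 2.85, 2.62 and 2.74 in cambium against 3.00, 2.75 and 3.02 in sheath on medium, and the groups overlapped (change -0.18 ± 0.17, limma adjusted p = 0.837). The cambium arrays at 5 days were all below the sheath arrays on NAA at 2 days, with a change of -0.54 ± 0.17 (adjusted p = 0.129), an order that 8.85% of all probe sets had. No member passed in that comparison, where 2.02% of all probe sets did, and IAA29 differed there by -1.31 ± 0.56 (adjusted p = 0.332). The change of IAA18 with NAA at 5 days minus that at 2 days was -0.67 ± 0.25 (adjusted p = 0.252), and no member passed where 1.01% of all probe sets did. Without the 3 narrow arrays the value of cambium against sheath on NAA passed (adjusted p = 0.0422). In stem IAA18 was 2.99, 3.05 and 2.79 after 2 days on NAA, against 2.90, 2.96 and 3.22 untreated, and the groups overlapped.

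IAA30 and IAA20 form a closely related pair that lacks domain II, so their proteins are long-lived, and in the root both act in the patterning of xylem downstream of the auxin response factor MONOPTEROS. IAA30 measured 3.27, 3.00 and 3.62 in the cambium at 5 days, against 2.87, 2.72 and 2.74 in sheath on medium. The groups did not overlap, and the change of 0.52 ± 0.18 did not pass (limma adjusted p = 0.145). IAA29 and IAA30 were the 2 of 7 members whose cambium arrays all lay above the medium arrays, as 10.3% of all probe sets did. At 2 days IAA30 was 2.96, 3.2 and 2.84 in sheath on NAA against 2.97, 3.04 and 2.68 on medium, with overlap and a change of 0.11 ± 0.18 (adjusted p = 0.879). In untreated sheath it was 2.68, 2.94 and 3.16, and the cambium arrays overlapped with these. Cambium and stem on NAA at 5 days overlapped as well, the stem being at 3.13, 3.05 and 3.1.

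In the 5-day comparison markers of green cortex and of the starch sheath moved with the groups. Of 7 measured green cortex markers 1 was higher and 3 were lower in cambium than in sheath on medium, where 3.49% of all probe sets passed. The mean log2 level of these 7 was 5.65 to 6.71 in cambium and 7.04 to 7.81 in sheath on medium. Of the 2 sheath markers SBE2.2 was lower in cambium (-2.08 ± 0.45, limma adjusted p = 0.0121) and JKD did not pass (0.26 ± 0.27, adjusted p = 0.867), and their mean log2 level was 3.06 to 3.53 in cambium and 4.14 to 4.32 in sheath on medium. The part of these markers in the values of IAA29 and IAA30 was not tested. At 2 days 0 of 7 green cortex markers passed with limma, where 0.382% of all probe sets did. Their mean level was 7.39 to 7.87 in sheath on NAA and 6.78 to 7.22 in sheath on medium. In such samples fewer cells of a type and less RNA per cell cannot be told apart.

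IAA20 did not pass in any comparison. It was 3.01, 3.06 and 2.94 in untreated sheath, against 2.84, 2.68 and 2.56 in untreated stem, a difference of 0.31 ± 0.12 without overlap (limma adjusted p = 0.29). IAA20 and IAA29 were the 2 of 7 members higher on every sheath array than on every untreated stem array, as 4.08% of all probe sets were. Every cultured sheath or cambium array lay below the 3 untreated sheath arrays. The changes were -0.33 for sheath on NAA at 2 days (adjusted p = 0.0732), -0.22 for cambium at 5 days (0.245), -0.38 for medium at 2 days (0.0776) and -0.38 for medium at 5 days (0.0673). In all probe sets 13.4%, 8.73%, 7.32% and 9.67% lay below untreated sheath without overlap in these comparisons. None of the changes passed, and after quantile normalization, which removes the difference in spread between arrays, these 4 changes were -0.17, -0.11, -0.30 and -0.27. NAA against medium differed by 0.04 ± 0.12 at 2 days (adjusted p = 0.923) and 0.15 ± 0.12 at 5 days (0.755).

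In stem IAA20 was 2.99, 2.98 and 2.79 after 5 days on NAA, against 2.63, 2.52 and 2.49 after 2 days, without overlap, and the change of 0.37 ± 0.12 did not pass (limma adjusted p = 0.229). It was the 1 member of 7 so ordered, as 12.2% of all probe sets were. The moderated F test over the 8 groups gave IAA20 an adjusted p of 0.0854, and the other 5 genes lay between 0.317 and 0.813.

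IAA31, which carries an imperfect domain II and is degraded slowly, showed no difference in any direction that passed. It was 2.83, 2.69 and 2.54 in sheath on NAA at 2 days, against 3.02, 2.65 and 2.78 on medium, and 2.51, 2.67 and 2.84 in cambium at 5 days, against 2.62, 2.55 and 2.55 on medium. The groups overlapped at both times. On medium alone its arrays at 5 days lay below those at 2 days (change -0.24 ± 0.17, limma adjusted p = 0.829), as for 10.6% of all probe sets, and no member passed in that comparison, where 0.303% of all probe sets did. Untreated arrays were more scattered, at 2.59, 3.06 and 2.96 in sheath and 2.64, 2.60 and 3.14 in stem.

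IAA33 lacks domains I and II and is known from the root tip, where its protein binds ARF10 and ARF16. Its group means lay between 2.44 and 2.63, the smallest range of the list. It was 2.45, 2.49 and 2.43 in sheath on NAA at 2 days, against 2.60, 2.70 and 2.45 on medium, and 2.48, 2.47 and 2.58 in cambium at 5 days, against 2.51, 2.69 and 2.49 on medium. The groups overlapped at both times. In sheath on NAA at 2 days all arrays were just below untreated sheath at 2.50, 2.55 and 2.83, with a change of -0.17 ± 0.11 (limma adjusted p = 0.262). IAA20 and IAA33 were the 2 of 7 members so ordered, as 13.4% of all probe sets were.

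IAA34, with its relative IAA32, is stabilised by the receptor kinase TMK1 on the inner side of the apical hook. It lay between 3.04 and 3.2 in sheath on NAA at 2 days, against 2.97 to 3.42 on medium, and was 3.08, 3.06 and 3.76 in cambium at 5 days, against 2.98, 3.11 and 3.03 on medium. Both comparisons overlapped, and the high cambium mean of 3.3 rests on replicate 3. In untreated tissue IAA34 was 3.32, 3.6 and 3.02 in sheath and 2.99, 3.41 and 3.74 in stem, again with overlap.

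**Figure D3:**
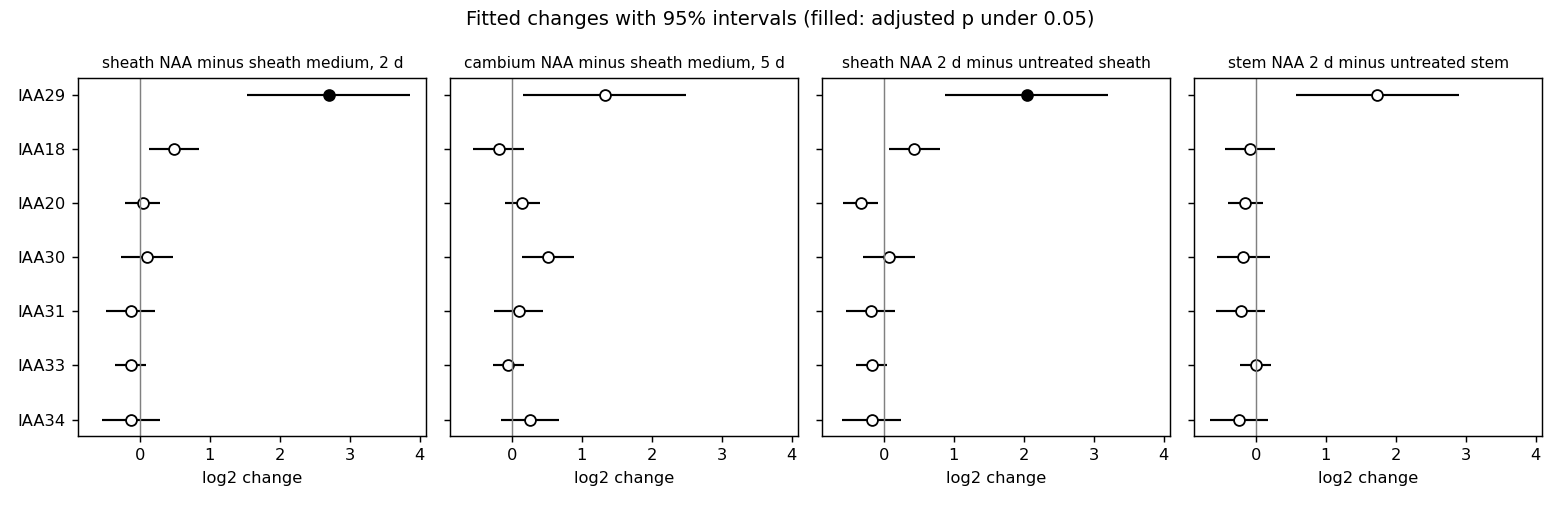
Fitted log2 change (x axis) of each of the 7 Aux/IAA genes (rows) in 4 comparisons (panels), with 95% intervals from limma over 24 arrays. Filled points have an adjusted p under 0.05. IAA29 is filled for sheath on NAA at 2 days against medium (2.70) and against untreated sheath (2.04), and the intervals of the other 6 genes stay within 1 log2 unit of 0.

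The genes of the wider auxin pathway were looked up in lists, few of whose entries the annotation named. None of 6 receptors, 22 ARFs, 5 corepressors or 15 PIF and shade genes was measured under its name, so the partners of the Aux/IAA proteins could not be described. Of 19 genes of auxin conjugation and oxidation 7 were measured. At 2 days 2 of these were higher on NAA and 5 did not pass, and at 5 days 1 was higher and 6 did not pass. Of all probe sets 0.382% passed at 2 days and 3.49% at 5 days. The median change over the 7 genes was 0.07 and 0.02, that over the Aux/IAA genes was 0.04 and 0.15, and that over all probe sets -0.06 and 0.01. Of the 22 genes of auxin synthesis 4 were measured, and 0 of 4 passed with limma at either time.

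GH3.3, an amidosynthetase that links auxin to amino acids, was the member of that list that rose at both times. It measured 8.37, 9.62 and 6.53 in sheath on NAA at 2 days, against 2.56, 2.69 and 2.34 on medium, and 8.33, 5.95 and 6.58 in cambium at 5 days, against 2.2, 2.56 and 2.37 on medium. The groups are far apart at both times, and averaged over both the change was 5.11 ± 0.59 (limma adjusted p = 7.73e-05). This average again sets cambium against sheath at 5 days. On the same average HAT2, an auxin-induced HD-ZIP II transcription factor, rose by 3.41 ± 0.46 (adjusted p = 0.000411). It was the 1 of 3 measured HD-ZIP II and LBD genes to pass at 2 days and again at 5 days, where 0.382% and 3.49% of all probe sets passed. LBD16 and LBD29 had changes between -0.17 and 0.06. The count for this list fell to 0 at 2 days without sheath NAA replicate 2 or any of the 3 medium arrays, and in a fit of the compared groups. At 5 days it fell to 0 without cambium replicate 2 or medium replicate 2, and with the GAPDH covariate.

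AT1G14130, named by its locus alone and entered in the list of conjugation and oxidation genes, passed at 2 days, with 4.35, 4.67 and 4.05 in sheath on NAA against 2.89, 2.92 and 3.24 on medium (1.34 ± 0.17, limma adjusted p = 0.00198). In cambium at 5 days it was 3.91, 3.4 and 3.62 against 3.55, 3.28 and 3.43 on medium and did not pass (adjusted p = 0.742). The difference between the changes at 5 and 2 days passed for this gene (-1.12 ± 0.24, adjusted p = 0.0292), and time and captured tissue cannot be told apart in it. WES1, the conjugating enzyme GH3.5, was high on replicate 2 of both tissues on NAA at 2 days, with 3.45, 6.45 and 3.54 in sheath and 3.44, 6.05 and 3.38 in stem, the same replicate in which IAA29 was highest. Its change against medium of 1.72 ± 0.65 did not pass (adjusted p = 0.337).

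The medium arrays were also set against untreated sheath. GH3.3 was 5.75, 4.90 and 4.03 in untreated sheath, above all arrays on medium, and HAT2 was 8.11, 8.27 and 7.0, against 5.37, 6.18 and 5.31 on medium at 2 days. The changes on medium at 2 days relative to untreated sheath were -2.36 ± 0.83 for GH3.3 (limma adjusted p = 0.114), -2.17 ± 0.66 for HAT2 (0.0646) and -0.66 ± 0.56 for IAA29. All 3 genes lay lower on every medium array at 2 days than in untreated sheath, as 7.32% of all probe sets did, and none passed. GH3.3 and HAT2 were picked after their values were seen, and WES1 and AT1G14130 overlapped here, with 3.00, 2.72 and 2.54 on medium against 2.97, 3.05 and 2.58 untreated for WES1, and 2.89, 2.92 and 3.24 against 3.2, 3.52 and 3.63 for AT1G14130.

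**Figure D4:**
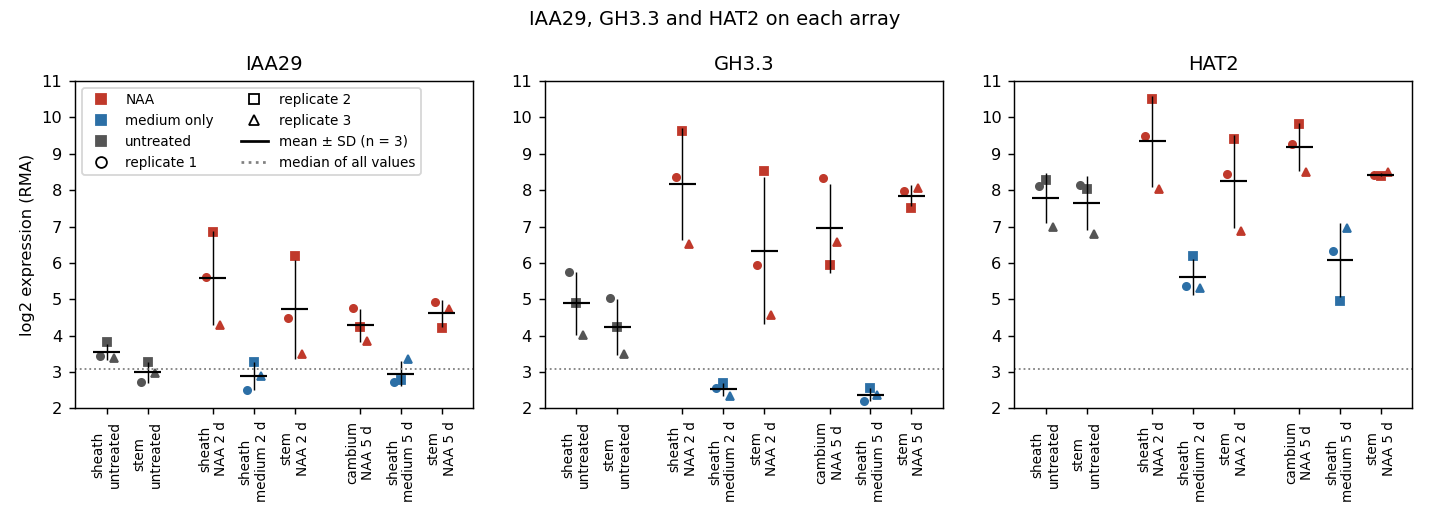
IAA29, GH3.3 and HAT2 (panels) on each of the 24 arrays, as log2 expression after RMA (y axis), by tissue and treatment (x axis) from 0 to 5 days, with the mean and SD of 3 arrays in black and the median of all values dotted. In each panel the medium arrays at 2 days lie below the untreated sheath arrays and the NAA sheath arrays above the medium arrays, and on NAA at 2 days replicate 2 is the highest and replicate 3 the lowest in both tissues.

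The search for like patterns covered the 8237 probe sets that name 1 gene outside the list and whose highest group mean reached the median of all values. Among these, the patterns most like that of IAA29 over the 24 arrays were those of GH3.3 (Pearson r = 0.894), AT4G38540 (0.894) and AT4G01870 (0.877), while HAT2 came 11th with 0.824. These are descriptions over arrays that fall into those with and without NAA and share the order of replicates at 2 days. AT4G38540 measured 7.26, 7.66 and 5.60 in sheath on NAA at 2 days, against 3.99, 4.66 and 4.99 on medium. AT4G01870 measured 8.10, 10.06 and 7.55 in sheath on NAA at 2 days, against 5.72, 5.81 and 6.26 on medium. The other Aux/IAA genes shared little of the pattern, since their r with IAA29 lay between -0.275 (IAA33) and 0.463 (IAA18), and the closest pair of the list was IAA31 and IAA34 (r = 0.524).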

How the data were processed

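The authors deposited log2 expression values of 22810 probe sets on 24 arrays in a single table, and RMA and limma are the tools in the submitters' processing notes, with no versions. The table states no log base, and base 2 was assumed, as RMA gives. The RNA went through repeated amplification, per the labels' protocols, so signals come mainly from 3′ ends. The 64 control probe sets were left out, and 22746 were tested with limma 3.58.1 in R 4.3.3: 1 mean per group over all arrays, 18 contrasts, eBayes (prior degrees of freedom 2.55, residual 16), two-sided, Benjamini-Hochberg within a contrast, threshold 0.05. The script was tested on simulated data. Fold is 2 to the power of the log2 change.

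Probe annotation and the gene table of assembly TAIR10.1 gave names, with 13513 probe sets naming 1 gene. The text names all 7 members, for IAA29 the 3 genes most alike by Pearson r, and list genes. Those list genes, HAT2 among the likeness values and the replicate order were picked after values were seen. The members and lists were chosen with earlier results of these data known. Alternatives were a fit of the compared groups, a replicate block, a dim filter at the median, quantile normalization, cyclic loess, array weights, a trended robust prior, the GAPDH covariate, a minimum of 2-fold, and leaving out arrays. Same-numbered arrays deviated together (all 3 r over 0.1) for sheath and stem on NAA at 2 days (0.126 to 0.507) and for stem at 2 days and cambium at 5 days on NAA (0.103 to 0.130).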

Additional observations from a re-analysis of the deposited data

How the results depend on the processing

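Under the alternatives 751 of 794 counts of called genes stayed within 1.5 times the reported ones and 43 moved. Of 4307 single values 4273 stayed on the same side of the threshold, 20 no longer passed and 14 newly passed. No member passed in 15 of 18 contrasts of the main fit, so these totals hold mostly uncalled values and say little of stability. The values that passed there, all of IAA29, passed in 23 of 35 settings for NAA against medium at 2 days. Against untreated sheath it was 27 of 35, and for the average of both times 34 of 34. Among values called in the main fit or the alternative, 0 reversed direction. For values called in neither, direction was not compared, and some of them changed sign. The cause was not tested.

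With only the compared groups, the count of Aux/IAA genes was 0 for NAA against medium at 2 days and 0 for sheath on NAA at 2 days against untreated, but 1 for stem on NAA at 5 days (IAA29), and the counts of conjugation and of HD-ZIP II and LBD genes at 2 days were 0 and 0. Without the second replicate of both tissues on NAA at 2 days, an alternative chosen after seeing the data, the 2-day counts of Aux/IAA and HD-ZIP II genes were 0 and 0 (IAA29 at adjusted p = 0.053). With the GAPDH covariate the count of Aux/IAA genes against untreated sheath at 2 days was 0, as was that of HD-ZIP II and LBD genes at 5 days. Without the 3 narrow arrays the count against untreated sheath was 0 and that of cambium against sheath on NAA at 2 days 1 (IAA18). Array weights, whose estimation gave a convergence warning, called 2 Aux/IAA genes at 5 days (IAA29 and IAA30), 1 in stem on NAA at 2 days and 1 at 5 days (IAA29), 1 for cambium against sheath on NAA at 2 days (IAA18), 1 for stem at 5 against 2 days (IAA20), 1 for the tissue difference at 5 days (IAA31) and 2 in the F test. Against untreated sheath they called IAA18 in place of IAA29 (adjusted p 0.0234 and 0.0659).

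Leaving out 1 array gave 0 to 1 Aux/IAA genes for NAA against medium at 2 days, 0 to 2 for sheath on NAA at 2 days against untreated, 0 to 1 for medium at 2 days against untreated, for stem on NAA at 2 days and for cambium against sheath on NAA at 2 days, 1 to 2 conjugation genes at 2 days, and 0 to 1 HD-ZIP II and LBD genes at 2 and at 5 days. At 2 days IAA29 lost its call without sheath NAA replicate 1 (adjusted p = 0.0839) or 2 (0.258), medium replicates 1, 2 or 3 (0.149, 0.101 and 0.0779), stem NAA 2-day replicate 1 (0.052), stem NAA 5-day replicates 1, 2 or 3 (0.051, 0.0508 and 0.0557) or medium 5-day replicate 1 (0.0529). Against untreated sheath it did so without untreated replicates 2 or 3 (0.056 and 0.0836) or NAA replicates 1 or 2 (0.0548 and 0.142).

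With the replicate block the adjusted p of IAA29 was 0.0267 at 2 days, 0.00527 for both times and 0.0181 against untreated sheath, and the block changed no call of an Aux/IAA gene. The levels of the other 6 genes, near or below the median, limit what these arrays can show of them.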
